A study of Mus musculus with 4 samples.

Results

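The genes described here are 10 genes best known from myeloid cells, Lyz2, Lyz1, Tyrobp, Fcer1g, Cd68, Cd14, Ctss, Cd53, Alox5ap and Laptm5, of 55335 genes listed in 4 RNA-seq libraries of the mouse colon carcinoma line CT26. They were chosen by symbol from a comparison of the suffix R difference in stem CT26_102 with that in stem CT26_CTL, in which all 4 libraries were used. Their differences with suffix R in each stem, and the difference between the stems, are therefore a description and were not tested. The libraries titled CT26_102_R and CT26_CTL_R are labelled FOSL2-KO with chemoradiotherapy. Those titled CT26_102 and CT26_CTL are labelled FOSL2-WT with PBS. Each title is 1 library, genotype and treatment change together with the suffix, and the labels explain neither the number in the title nor the R, and give no time, dose or clone. Separate cultures are not stated, so any spread between libraries may be technical. The p-values here come from a fit of stem and suffix with 1 residual degree of freedom. Its spread is how far the suffix R differences of the stems disagree, moderated over genes, and not a spread of replicates.

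Lysozymes cut the cell wall of bacteria and are among the most abundant products of macrophages and granulocytes. Tyrobp and Fcer1g are small membrane adaptors that carry the signal of many myeloid receptors to the kinase Syk, and Cd14 hands bacterial lipopolysaccharide to the receptor Tlr4. Cd68, Ctss and Laptm5 belong to endosomes and lysosomes, which are large in phagocytes, but several such genes are also active outside the blood lineages.

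Fosl2, the targeted gene, was at 16.0 FPKM in CT26_102_R against 9.35 in CT26_102, and at 19.2 in CT26_CTL_R against 12.7 in CT26_CTL, higher with suffix R (log2 difference 0.64 ± 0.13, limma adjusted p = 0.0444). Its transcript was thus not lower in the libraries labelled FOSL2-KO. Since treatment changes with genotype here, this level cannot check the genotype labels, and the libraries are named by title. Depth, read from the step that 1 fragment makes in low values, was between 21.8 and 26.7 M fragments and is approximate. Fragment numbers given for members also use the full exonic length in GENCODE. The length behind the FPKM is not known, so these numbers are rough where a gene has several transcripts. Of 10 genes used by every cell, 0 were at 0 in any library. Of 17 epithelial markers, 12 were under 0.5 FPKM in every library, among them Epcam, listed at 0 in all 4, and Cdh1, at no more than 0.0202. Krt18 was at 39.6 FPKM in CT26_102_R against 34.7 in CT26_102, and at 76.5 in CT26_CTL_R against 42.5 in CT26_CTL. Krt20, an intestinal keratin gene of the same list, was between 24.5 and 36.8 FPKM. The epithelial adhesion genes Epcam and Cdh1 were thus at or near 0, while these keratin genes were not. Vim, a mesenchymal filament gene, was between 503 and 782 FPKM.

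The 10 genes fell into a set of 6 and a set of 4. Lyz2, Lyz1, Tyrobp, Fcer1g, Ctss and Laptm5 were higher in CT26_102_R than in CT26_102 and lower in CT26_CTL_R than in CT26_CTL. Cd68, Cd14, Cd53 and Alox5ap were higher with suffix R in both stems, so a direction that depends on the stem describes 6 of the 10. The summed level of the 6 was 79.6 FPKM in CT26_102_R against 25.6 in CT26_102, and 5.26 in CT26_CTL_R against 26.7 in CT26_CTL. In this sum, with Lyz2 as its largest part, both libraries without the suffix were close to each other, and those with it stood above and below them. Taken singly, Ctss and Fcer1g were not highest in CT26_102_R. They were at 2.64 and 1.58 FPKM there, against 2.96 and 1.62 in CT26_CTL.

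**Figure D1:**
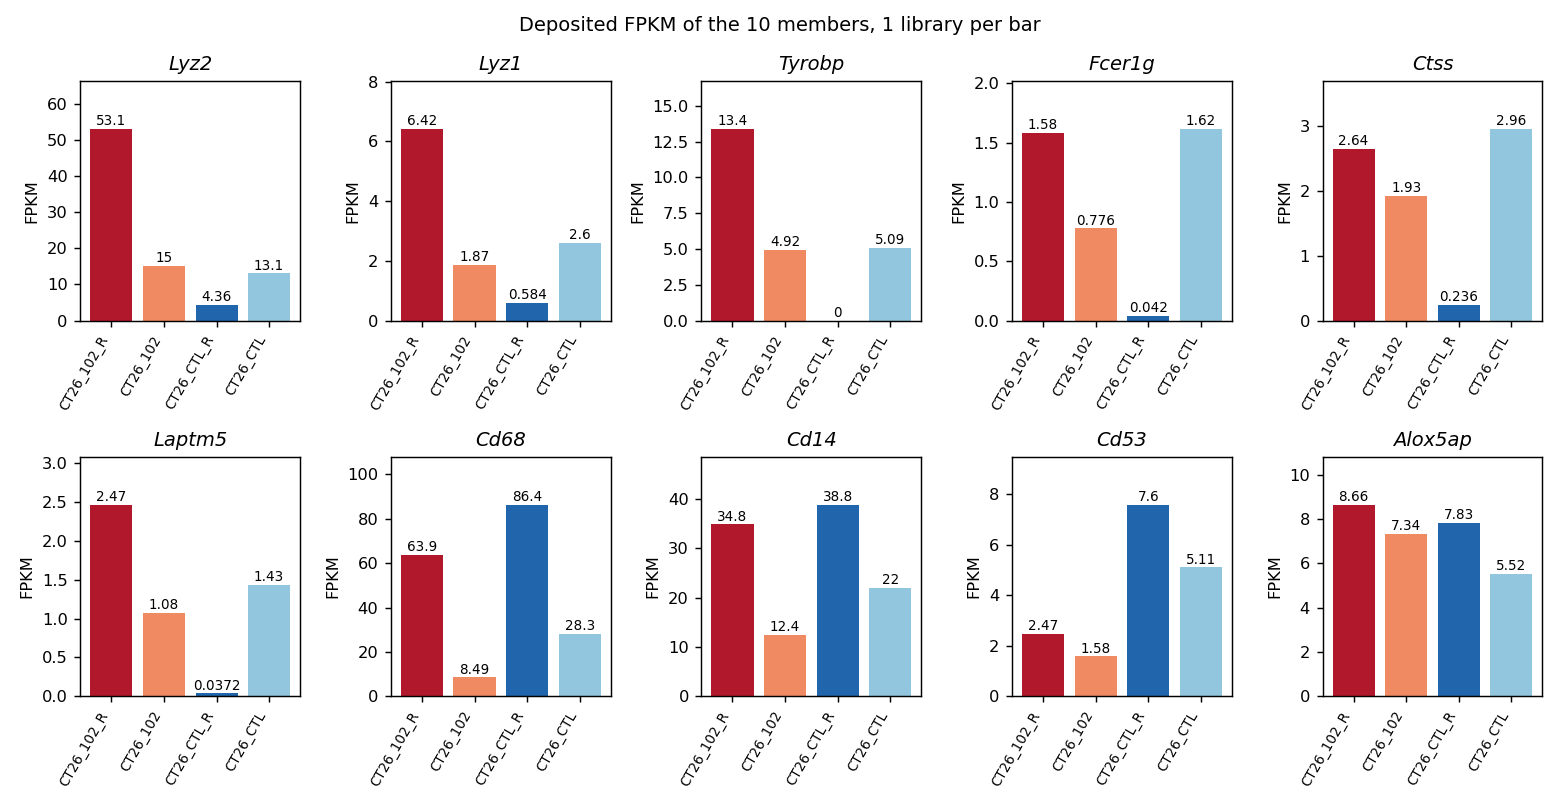
FPKM (vertical axis, from 0, scaled separately for each gene) of the 10 members in each of the 4 libraries, with 1 library per bar and no error. In the first 6 panels the bar of CT26_CTL_R is the lowest of the 4, from 0 for Tyrobp to 4.36 for Lyz2, and in the panels of Cd68, Cd14 and Cd53 it is the highest.

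Lyz2 (ENSMUSG00000069516, GRCm38 chromosome 10, 117277331 to 117282321, minus strand) encodes the lysozyme of macrophages and granulocytes. Lyz1 (ENSMUSG00000069515, chromosome 10, 117287797 to 117292868, minus strand) is its neighbouring copy, best known from Paneth cells of the gut. Their coding sequences are 444 bases each and 95.0% identical, with 22 differing bases, of which 14 lie in the first 150. Those 150 coding bases, from GENCODE M21 transcripts and written 5′ to 3′ with differing bases in capitals, show how close the copies are:
Lyz2: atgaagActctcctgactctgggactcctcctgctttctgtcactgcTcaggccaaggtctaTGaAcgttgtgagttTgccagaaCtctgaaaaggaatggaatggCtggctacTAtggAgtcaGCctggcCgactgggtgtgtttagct
Lyz1: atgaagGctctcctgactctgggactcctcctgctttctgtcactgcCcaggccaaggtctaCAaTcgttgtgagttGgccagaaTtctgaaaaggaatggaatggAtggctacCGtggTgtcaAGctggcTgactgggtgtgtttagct

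Of all 50-base windows of the Lyz1 transcript, 16.1% also occur in that of Lyz2, and of 100-base windows 2.06%. Since no source used here gives the read length or says how shared reads were treated, the split between the copies is uncertain. Lyz2 was at 53.1 FPKM in CT26_102_R against 15.02 in CT26_102, and at 4.36 in CT26_CTL_R against 13.1 in CT26_CTL. It was thus 3.53 times as high with the suffix in stem CT26_102 and 0.334 times as high in stem CT26_CTL. Lyz1 was at 6.42 FPKM in CT26_102_R against 1.87 in CT26_102, and at 0.584 in CT26_CTL_R against 2.60 in CT26_CTL. The ratio of Lyz2 to Lyz1 FPKM was 8.27 in CT26_102_R against 8.02 in CT26_102, and 7.46 in CT26_CTL_R against 5.03 in CT26_CTL, so the copies kept the same order in each library.

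Tyrobp (ENSMUSG00000030579, chromosome 7, 30413760 to 30417585, plus strand) encodes the adaptor DAP12, the signalling partner of Trem2 and other receptors. It was at 13.4 FPKM in CT26_102_R against 4.92 in CT26_102, and was listed at 0 in CT26_CTL_R against 5.09 in CT26_CTL. At the estimated depth 5.09 FPKM of Tyrobp is about 90.6 fragments and 3 fragments are 0.205 FPKM in CT26_CTL_R, so the listing at 0 lies well below the level of the matched library. Fcer1g (ENSMUSG00000058715, chromosome 1, 171229572 to 171234365, minus strand), the gamma chain shared by Fc receptors, was at 1.58 FPKM in CT26_102_R against 0.776 in CT26_102, and at 0.0420 in CT26_CTL_R against 1.62 in CT26_CTL. The value in CT26_CTL_R is about 0.806 fragments, under the 0.156 FPKM that 3 fragments make, so no fold is given in that stem. Both adaptors shared the order of Lyz2 with suffix R, but Fcer1g was about as high in CT26_CTL as in CT26_102_R.

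Ctss (ENSMUSG00000038642, chromosome 3, 95526786 to 95556403, plus strand) encodes cathepsin S, the endosomal protease that trims the invariant chain Cd74 from MHC class II. It was at 2.64 FPKM in CT26_102_R against 1.93 in CT26_102, and at 0.236 in CT26_CTL_R against 2.96 in CT26_CTL. The ratios were 1.37 in stem CT26_102 and 0.0800 in stem CT26_CTL, so most of its contrast lay in stem CT26_CTL. There the value in CT26_CTL_R is only about 7.05 fragments. Laptm5 (ENSMUSG00000028581, chromosome 4, 130913125 to 130936141, plus strand), a lysosomal membrane protein of blood cells, was at 2.47 FPKM in CT26_102_R against 1.08 in CT26_102, and at 0.0372 in CT26_CTL_R against 1.43 in CT26_CTL. That lowest value is about 3.10 fragments. Ctss overlaps the pseudogene Hmgb1-ps5, listed at no more than 0.193 FPKM, and no source used here says whether strand was kept.

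The 6 genes did not keep fixed proportions. The ratio of Lyz2 to Ctss FPKM was 20.1 in CT26_102_R against 7.80 in CT26_102, and 18.4 in CT26_CTL_R against 4.42 in CT26_CTL. The value of 18.4 rests on about 7.05 fragments of Ctss. The ratio of Lyz2 to Laptm5 was 21.5 in CT26_102_R against 13.9 in CT26_102, and 117 in CT26_CTL_R against 9.11 in CT26_CTL, the value of 117 resting on the few fragments of Laptm5. In stem CT26_CTL the level with suffix R was 0.334 times that without it for Lyz2, 0.225 times for Lyz1 and 0.0800 times for Ctss, and Tyrobp, Fcer1g and Laptm5 were at about 3.10 fragments or fewer.

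Cd68 (ENSMUSG00000018774, chromosome 11, 69664213 to 69666153, minus strand) encodes macrosialin, a lysosomal glycoprotein of the LAMP family. It was at 63.9 FPKM in CT26_102_R against 8.49 in CT26_102, and at 86.4 in CT26_CTL_R against 28.3 in CT26_CTL, ratios of 7.52 and 3.05. The libraries with suffix R and those without it did not overlap, an order whose share of all genes was not counted. Cd14 (ENSMUSG00000051439, chromosome 18, 36725067 to 36726798, minus strand), the lipopolysaccharide co-receptor, was at 34.8 FPKM in CT26_102_R against 12.4 in CT26_102, and at 38.8 in CT26_CTL_R against 22.0 in CT26_CTL. Its ratios were 2.81 and 1.76, again without overlap, and each level rested on at least about 469 fragments. Relative to Lyz2, Cd68 was 1.2 times as high in CT26_102_R and 0.565 times in CT26_102, but 19.8 times as high in CT26_CTL_R and 2.17 times in CT26_CTL.

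Alox5ap (ENSMUSG00000060063, chromosome 5, 149264767 to 149288153, plus strand) encodes FLAP, which presents arachidonic acid to 5-lipoxygenase for leukotriene synthesis. It varied least, at 8.66 FPKM in CT26_102_R against 7.34 in CT26_102, and at 7.83 in CT26_CTL_R against 5.52 in CT26_CTL. Its antisense neighbour Gm19719 was listed at no more than 0.0545 FPKM. Cd53 (ENSMUSG00000040747, chromosome 3, 106759921 to 106790149, minus strand), a tetraspanin of leukocytes, was at 2.47 FPKM in CT26_102_R against 1.58 in CT26_102, and at 7.60 in CT26_CTL_R against 5.11 in CT26_CTL. Of the 10 genes only Cd53 had both CT26_102 libraries below both CT26_CTL libraries, whereas Cd68, Cd14 and Alox5ap had both libraries with suffix R above both without it. The share of all genes with either order was not counted, so these orders only describe the members. The looser order, higher with suffix R in both stems at any size, held for 39.1% of all tested genes.

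**Figure D2:**
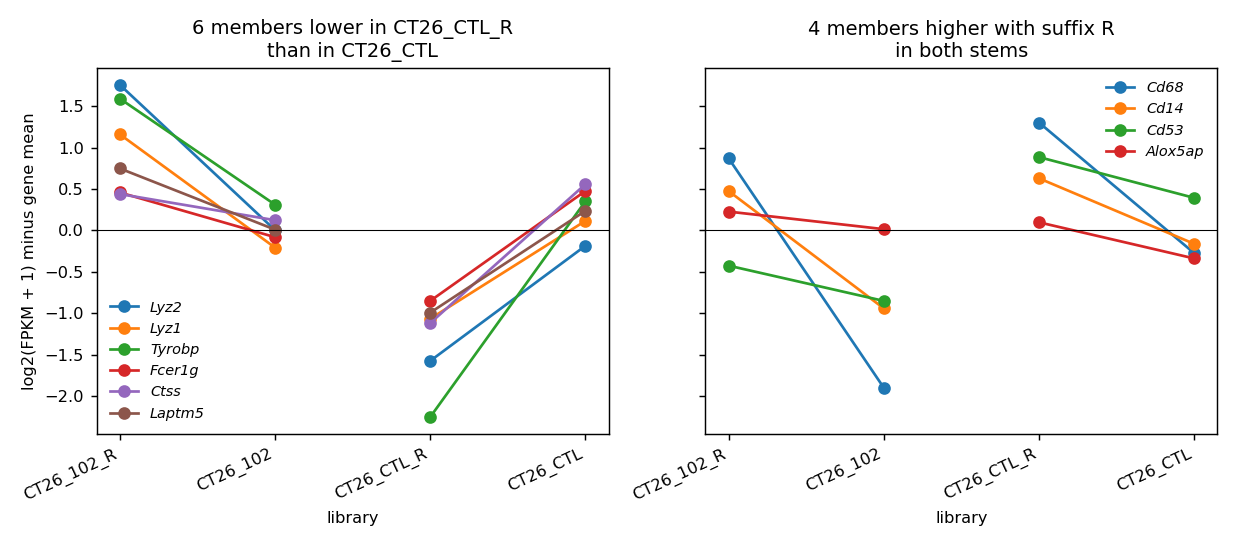
Level of each member in each library as log2(FPKM + 1) minus its mean over the 4 libraries, with lines joining the libraries of 1 stem and 1 point per library. At left, the 6 members slope down to the right within stem CT26_102 and up within stem CT26_CTL, and at right the 4 others slope down within both stems.

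On the scale log2(FPKM + 1), which shrinks the differences of low genes, the difference of Lyz2 with suffix R was 1.75 in stem CT26_102 and -1.39 in stem CT26_CTL. For Tyrobp these differences were 1.28 and -2.61, and for Cd68 2.77 and 1.58. The difference in stem CT26_102 minus that in stem CT26_CTL, called the stem contrast here, ran from -0.22 for Alox5ap to 3.89 for Tyrobp. Its median over the 10 was 1.92, beside 0.05 over all 11955 genes with at least 1 FPKM in at least 2 libraries, a filter that all 10 members passed. A stem contrast of at least 1, or 2-fold, was found in 7 of the 10, with Cd14, Cd53 and Alox5ap below it, and in 2.13% of all genes. Higher in stem CT26_102 and lower in stem CT26_CTL with suffix R, at any size, were 6 of 10, beside 13.6% of all genes, and higher with suffix R in both stems were 4 of 10, beside 39.1%. With at least 1.5-fold in each stem there were 4 of 10, Lyz2, Lyz1, Tyrobp and Laptm5, beside 0.284%, and in the reverse sense 0 of 10, beside 0.176%. Because these values chose the genes, the counts only describe the choice. With 1 library for each stem and suffix the stem contrast has no replicate, and the lower side of the 6 rests on CT26_CTL_R alone.

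**Figure D3:**
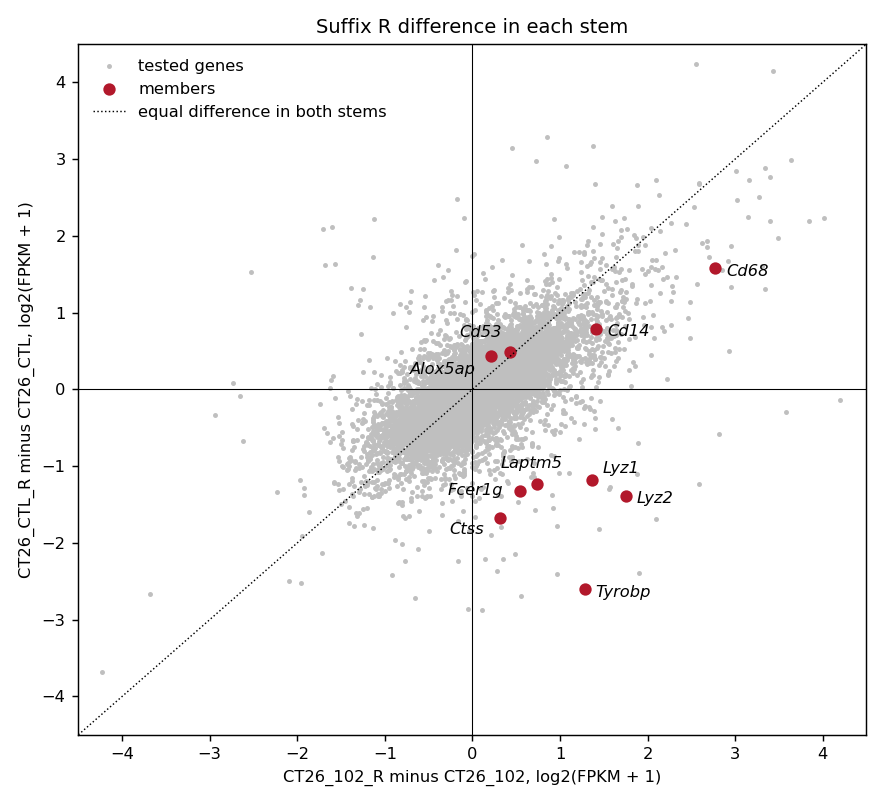
Suffix R difference in stem CT26_102 (horizontal) and in stem CT26_CTL (vertical), both on log2(FPKM + 1), for tested genes (grey) and the 10 members (red), with a dotted line where both stems differ equally. The 6 members with opposite differences lie at the lower right, Tyrobp lowest at 1.28 and -2.61, and 4 genes lie outside the axes, which end at 4.5 either way.

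Promoter sequence is shown because the members include genes that differed together. RefSeq windows (GRCm38.p6) of 300 bases, mostly before the RefSeq start, were searched for 7 of the 10. Tyrobp and Alox5ap had no window in the source used. The window of Cd14 was left out of the search, so nothing is said here of its motifs. Of these, 5 are printed, each with 1 kind of motif in capitals and any other motif left unmarked. The windows of Fcer1g and Cd53 are not printed, although they hold 7 and 6 matches of GGAA. Motifs were searched on both strands as GGAA, the core bound by ETS factors such as PU.1 (the product of Spi1, a main factor of myeloid cells), GAGGAA, a longer PU.1 core that contains it, TGANTCA, the site of AP-1, to which FOSL2 belongs, and CACGTG, an E-box. Of all 32851 windows 96.0% hold the ETS core, 28.3% the longer PU.1 core, 7.81% the AP-1 site and 7.15% the E-box. The windows of Lyz2 (chr10:117282223-117282522, minus strand) and Lyz1 (chr10:117292819-117293118, minus strand) hold 5 and 4 matches of GGAA, in capitals, TTCC being the same core on the other strand:
Lyz2: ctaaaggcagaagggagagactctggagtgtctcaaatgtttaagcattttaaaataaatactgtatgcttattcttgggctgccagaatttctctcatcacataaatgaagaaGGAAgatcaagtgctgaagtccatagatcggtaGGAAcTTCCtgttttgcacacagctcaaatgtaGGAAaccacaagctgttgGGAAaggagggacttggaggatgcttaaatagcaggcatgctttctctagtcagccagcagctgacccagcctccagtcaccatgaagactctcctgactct
Lyz1: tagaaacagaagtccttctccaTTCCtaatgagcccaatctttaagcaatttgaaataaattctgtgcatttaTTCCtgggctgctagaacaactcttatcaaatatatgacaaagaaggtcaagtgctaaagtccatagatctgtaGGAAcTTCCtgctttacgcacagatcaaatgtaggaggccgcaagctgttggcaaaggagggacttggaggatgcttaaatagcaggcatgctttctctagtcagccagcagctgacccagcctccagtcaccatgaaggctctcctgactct
The paired matches that begin 103 and 98 bases before the start occur in both copies. Neither window holds the longer PU.1 core, the AP-1 site or the E-box.

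Among the genes higher with suffix R in both stems, Cd68 has a window (chr11:69666121-69666420, minus strand) with 2 matches of TGANTCA, in capitals, beginning 149 and 24 bases before the start:
Cd68: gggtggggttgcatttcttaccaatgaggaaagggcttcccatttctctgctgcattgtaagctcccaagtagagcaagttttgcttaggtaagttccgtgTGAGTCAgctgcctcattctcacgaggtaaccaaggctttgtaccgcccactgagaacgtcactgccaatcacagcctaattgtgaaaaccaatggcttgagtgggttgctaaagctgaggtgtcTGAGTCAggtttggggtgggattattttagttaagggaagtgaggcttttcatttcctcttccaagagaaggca
Of the 7 windows searched, which leave out Cd14 and Alox5ap of the 4, only that of Cd68 holds TGANTCA, and 0 of 7 hold the E-box. The longer PU.1 core is in the windows of Cd68, Ctss, Cd53 and Laptm5, on either side of the division between the 6 and the 4. The windows of Ctss (chr3:95526536-95526835, plus strand) and Laptm5 (chr4:130913066-130913365, plus strand), genes of the 6, hold it 2 times and 1 time, in capitals, with TTCCTC as the same core on the other strand:
Ctss: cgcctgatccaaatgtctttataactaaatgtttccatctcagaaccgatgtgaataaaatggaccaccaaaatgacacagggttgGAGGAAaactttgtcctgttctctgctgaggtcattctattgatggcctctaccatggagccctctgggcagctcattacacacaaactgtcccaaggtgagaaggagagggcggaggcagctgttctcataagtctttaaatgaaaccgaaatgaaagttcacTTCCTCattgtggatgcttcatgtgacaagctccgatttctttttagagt
Laptm5: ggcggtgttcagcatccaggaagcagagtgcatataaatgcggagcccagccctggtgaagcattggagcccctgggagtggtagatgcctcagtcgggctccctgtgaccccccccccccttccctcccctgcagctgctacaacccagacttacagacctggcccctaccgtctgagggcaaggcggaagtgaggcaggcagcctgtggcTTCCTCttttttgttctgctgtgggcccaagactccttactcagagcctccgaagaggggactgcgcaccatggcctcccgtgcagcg
The start used for Laptm5 lies 191 bases inside the GENCODE gene, so most of its window lies within the gene. The starts used for Lyz2 and Fcer1g also lie inside their GENCODE genes, by fewer bases. A match is a run of letters and was not shown to be bound.

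Genes of the partners and families of the 10 were read from fixed lists, with limma's fit of stem and suffix together and adjusted p-values over all 11955 genes at a threshold of 0.05. In that fit 7.57% of all genes were higher and 5.32% lower with suffix R, and 12.5% were higher and 9.44% lower in stem CT26_102. An unadjusted p under 0.05 was reached by 36.1% of all genes by suffix and 40.4% by stem. Suffix R differences of opposite direction in the stems offset each other in the suffix term, which holds such genes back. With median-of-ratios scaling the stem calls turned to 1052 higher and 1564 lower, against 1494 higher and 1129 lower as deposited. The suffix calls, 1541 in all, depend on the fit, with 1 left when stem is not a term and 0 without the filter on low values. Of 15 genes of the lipopolysaccharide receptor route, 9 were tested, 2 rose and 0 fell with suffix R, and 1, the kinase gene Irak4, was higher and 0 were lower in stem CT26_102. Ly96 encodes the MD-2 subunit that binds lipopolysaccharide beside Tlr4. Its level was 6.29 FPKM in CT26_102_R against 3.11 in CT26_102, and 5.80 in CT26_CTL_R against 2.71 in CT26_CTL (log2 difference 0.85 ± 0.14, SE, n = 2 libraries per group, 1 from each stem, limma adjusted p = 0.0313). The adaptor gene Myd88 was at 36.1 against 13.8 in stem CT26_102, and at 24.5 against 11.7 in stem CT26_CTL, suffix R first (1.16 ± 0.14, limma adjusted p = 0.0220). Ly96 and Myd88 were thus higher with suffix R in both stems, as Cd14 was. Tlr4 itself did not pass, at 4.55 FPKM in CT26_102_R against 6.41 in CT26_102, and at 3.08 in CT26_CTL_R against 4.95 in CT26_CTL.

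Of 17 cathepsins, cystatins and related genes, 10 were tested and 4 rose and 0 fell with suffix R, while Ctso was higher and Ctsl, Cstb, Ctsd and Ctsz were lower in stem CT26_102. Ctsd, the aspartic lysosomal protease, was at 503 FPKM in CT26_102_R against 205 in CT26_102, and at 661 in CT26_CTL_R against 313 in CT26_CTL (1.19 ± 0.10, limma adjusted p = 0.0166). The inhibitors Cstb and Cst3 and the protease Ctsz also rose, by 0.98, 0.65 and 0.53 on the log2 scale. Of these 10 genes, among which Ctss is not counted, 8 were higher with suffix R in both stems at any size, beside 39.1% of all genes. Cd74, the substrate of Ctss in class II cells, was at 5.78 FPKM in CT26_102_R against 1.99 in CT26_102, and at 5.59 in CT26_CTL_R against 6.46 in CT26_CTL, and did not pass. The class II genes H2-Aa and H2-Ab1 were listed at 0 in all 4 libraries.

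Of 16 genes of leukotriene synthesis, 5 were tested, and 0 rose and 1 fell with suffix R, with 1 at an unadjusted limma p under 0.05. The gene that fell was Lta4h, which makes leukotriene B4, at 13.7 FPKM in CT26_102_R against 23.4 in CT26_102, and at 10.9 in CT26_CTL_R against 16.4 in CT26_CTL (-0.64 ± 0.13, limma adjusted p = 0.0450). Alox5, the lipoxygenase that Alox5ap serves, was at no more than 0.340 FPKM and Ltc4s was listed at 0 in all 4 libraries, so Alox5ap was present with its enzyme near 0. Of 25 partners of the adaptors Tyrobp and Fcer1g, 4 were tested, 0 passed with suffix R (0 also at an unadjusted limma p under 0.05) and 1 was lower in stem CT26_102, the receptor gene Cd300lb. Syk was between 1.04 and 1.80 FPKM, Trem2 at no more than 0.601, and the receptor gene Fcer1a listed at 0 in all 4 libraries. Both adaptors were thus measured with most of their receptors under 0.5 FPKM, 14 of the 25 in every library.

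Of 22 tetraspanins, 13 were tested and 0 passed with suffix R (4 at an unadjusted limma p under 0.05, a share below the 36.1% of all genes), while Cd37 was higher and Cd9 lower in stem CT26_102. Cd37, the relative of Cd53 in leukocytes, was at 2.26 FPKM in CT26_102_R against 1.75 in CT26_102, and at 0.0231 in CT26_CTL_R against 0.438 in CT26_CTL, the reverse order of stems from Cd53. Of 6 LAMP and LAPTM genes, 4 were tested and 0 passed in either comparison (1 in each at an unadjusted limma p under 0.05). Laptm4a and Laptm4b, the relatives of Laptm5, were between 128 and 163 and between 12.1 and 31.2 FPKM. The other genes of the lysozyme fold, 6 in the list, were under 0.5 FPKM in every library. Of 16 genes of lipid-laden phagocytes, 11 were tested, 3 rose with suffix R (Ctsd, Plin2 and Lgals3) and 3 were lower in stem CT26_102 (Spp1, Ctsd and Cd9). Of 25 myeloid transcription factors, 10 were tested, and Cebpd rose with suffix R and Cebpb was lower in stem CT26_102.

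Several leukocyte genes had the order of the 6 members, most of them at low levels. Of 21 pan-leukocyte genes, 9 were tested, 0 passed with suffix R (2 at an unadjusted limma p under 0.05, a share below the 36.1% of all genes). By stem, 3 were higher in CT26_102 (Rac2, Cd37 and Itgb2) and 1 lower (Evi2a). Of 28 macrophage and monocyte genes, 4 were tested, 0 passed with suffix R (0 also at an unadjusted limma p under 0.05), and Mertk was higher and Ncf4 lower in stem CT26_102. Of the 13 tested genes of both lists, 10 were higher in stem CT26_102 and lower in stem CT26_CTL with suffix R (13.6% of all genes), and 2 of them, Coro1a and Cd52, by at least 1.5-fold in each (0.284%). Opposite differences offset each other in the suffix term of the fit and widen its error. For these 10 genes, not passing by suffix was therefore partly built into the fit. Among the 10, Arhgdib and Ncf4 were close to equal in stem CT26_CTL, at 133 against 136 and at 4.36 against 4.48 FPKM, suffix R first. Coro1a, an actin regulator of leukocytes, was at 4.24 FPKM in CT26_102_R against 1.24 in CT26_102, and at 0.945 in CT26_CTL_R against 2.05 in CT26_CTL. Csf1r, the receptor of the macrophage growth factor, was at 1.998 FPKM in CT26_102_R against 1.10 in CT26_102, and at 0.158 in CT26_CTL_R against 0.965 in CT26_CTL. Spi1, which did not pass the filter, had the same order, at 1.69 against 0.540 in stem CT26_102 and at 0.326 against 0.701 in stem CT26_CTL, suffix R first. The other 3 tested genes went other ways. Itgb2, the beta chain of leukocyte integrins, was lower with suffix R in both stems, at 4.499 FPKM in CT26_102_R against 9.65 in CT26_102, and at 2.60 in CT26_CTL_R against 3.24 in CT26_CTL. Evi2a was higher with it in both, and the receptor kinase gene Mertk was lower with it in stem CT26_102, at 2.66 against 3.49, and close to equal in stem CT26_CTL, at 0.828 against 0.762. Cybb and Cx3cr1, below the filter, were lower with suffix R in both stems and at no more than 0.686 and 0.235 FPKM.

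The summed level of the pan-leukocyte list was 181 FPKM in CT26_102_R against 144 in CT26_102, and 149 in CT26_CTL_R against 162 in CT26_CTL. Arhgdib held most of it, at 113 to 139 FPKM, and without Arhgdib the sums were 41.8 in CT26_102_R against 31.2 in CT26_102, and 15.8 in CT26_CTL_R against 26.1 in CT26_CTL. The macrophage list summed to 13.3 FPKM in CT26_102_R against 11.2 in CT26_102, and to 7.38 in CT26_CTL_R against 10.3 in CT26_CTL. Of its 28 genes 21 were under 0.5 FPKM in every library and 7 were listed at 0 in all 4, C1qa, C1qb, C1qc, Ms4a7, Clec7a, Cd163 and Vsig4. Ptprc, the common leukocyte antigen, was at no more than 0.0880 FPKM, Adgre1 at no more than 0.132 and Itgam at no more than 0.161. The part of other cells in the levels of the 6 genes was not tested, and in bulk RNA fewer cells of a type and less RNA per cell cannot be told apart.

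**Figure D4:**
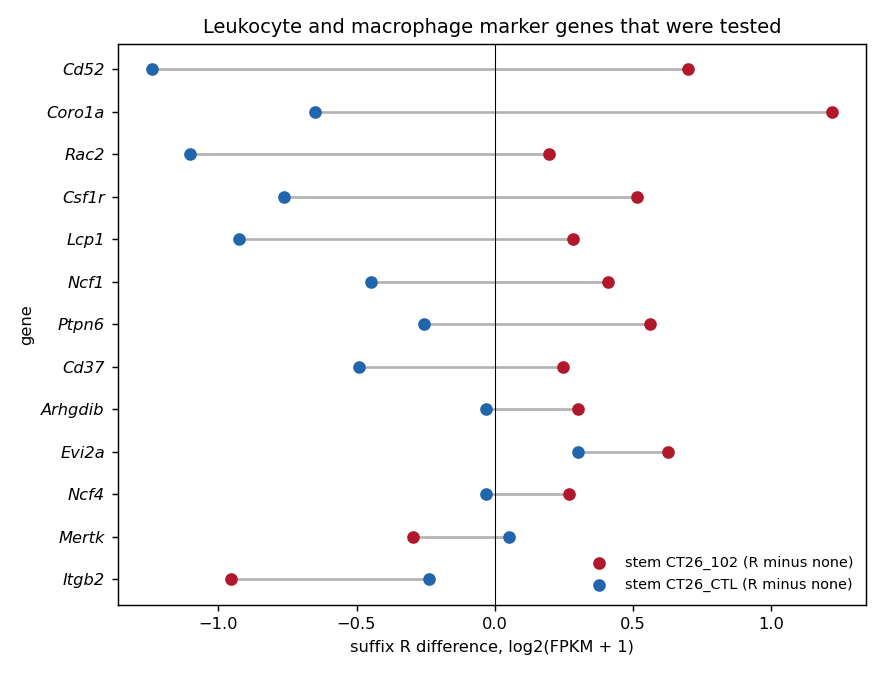
Suffix R difference on log2(FPKM + 1) in stem CT26_102 (red) and in stem CT26_CTL (blue) for the 13 tested genes of the pan-leukocyte and macrophage lists, 1 difference of 2 libraries per point. For 10 genes the red point lies right of 0 and the blue point left of it, with Cd52 and Coro1a farthest apart.

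Markers of other blood and tissue cells were mostly near 0. Of 14 neutrophil genes 11 were under 0.5 FPKM in every library, and Lcn2, the highest, reached 2.29. Lcn2 was lower in stem CT26_102, as the single tested gene of its list. All 8 mast cell and basophil genes and all 5 endothelial genes were under 0.5 FPKM in every library, as were 9 of 11 dendritic cell genes, 11 of 13 T and NK cell genes, 5 of 6 B cell genes and 4 of 6 erythroid genes. The highest were Hdc at 0.234 FPKM among mast cell genes, Pecam1 at 0.482 among endothelial genes, Cd74 among dendritic cell genes, Lck at 1.61 among T and NK cell genes, Cd79a at 0.585 among B cell genes and Hba-a1 at 1.06 among erythroid genes. Summed levels of T and NK cell genes were 2.27 FPKM in CT26_102_R against 1.33 in CT26_102, and 1.60 in CT26_CTL_R against 1.76 in CT26_CTL. Of 11 fibroblast genes, 6 were tested, and 0 rose and 2 fell with suffix R (Col1a2 and Vim), while 2 were higher in stem CT26_102 (Col1a1 and Col3a1). Of 17 epithelial genes, 4 were tested, 0 passed with suffix R (1 at an unadjusted limma p under 0.05) and Krt8 was higher in stem CT26_102.

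Genes with a pattern like that of the members were ranked by the Euclidean distance of their mean-centred log2(FPKM + 1) values over the 4 libraries. Nearest to the mean of the 10 members was Mitf, a factor of melanocytes, osteoclasts and mast cells, at a distance of 0.117. It was at 3.94 FPKM in CT26_102_R against 1.59 in CT26_102, and at 1.185 in CT26_CTL_R against 2.26 in CT26_CTL. Coro1a was next at 0.155, then Pgam5 at 0.230, a mitochondrial phosphatase gene. Others of the nearest 15, from 0.261 to 0.380, included Gm22270, Jmjd4, AC155937.1, Gm19253, Gm45380, Aldoc, Nat9, Tsacc, Cdipt, Tchp and Micu3. The members themselves lay 0.628 (Laptm5) to 2.41 (Cd68) from their mean, so the mean describes no single member closely. Among genes that are not members, those nearest to Lyz2 alone were Zfx at 0.710, Bola1 at 0.774, Fxyd2 at 0.838, Grap at 1.01 and Gm36961 at 1.01, and of the members Lyz1 lay 0.867 and Tyrobp 0.933 from it. With 4 libraries such distances are a description.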

How the data were processed

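RNA-seq was measured in 4 CT26 libraries, made per the labels from RNeasy total RNA with a SMARTer mRNA-seq kit. The file deposited by the authors holds FPKM per gene and library, a level scaled by transcript length and library size. GRCm38 and mm10, names of 1 assembly, come from the submitters' processing notes, while aligner, quantifier and strandedness were stated in no source used here. Positions and lengths are from GENCODE M21, which holds 55154 of the 55335 identifiers (99.67%), and promoters from RefSeq on GRCm38.p6.

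Depth was estimated from values under 5 fragments in genes with 1 transcript of at least 300 bases, and between 17.8% and 21.0% of them were whole within 0.02 fragments. No counts are given, so no counting intervals were computed. The 11955 genes that reached 1 FPKM in 2 or more libraries were analysed as log2(FPKM + 1) with R 4.3.3 and limma 3.58.1 (trend, Benjamini-Hochberg, threshold 0.05), with stem and suffix as terms, 1 residual degree of freedom and 4.01 prior degrees of freedom. The step was tested on simulated data with no stem effect, the same spread for every gene and only large differences. That simulation does not bear on the smaller differences called here. Errors after ± are standard errors from this fit, whose residual is the disagreement between the stems and not a spread of replicates. Values of the 10 members are described and not tested. The members and the 20 other gene lists were chosen with earlier results of these data known. Named genes are all members, the relatives or partners of each, list genes that passed, up to 6 a list, the highest gene of each list of other cell types, and, members left out, the nearest 15 genes by pattern and nearest 5 to Lyz2, except 1 gene that is not reported here. Where a symbol had several identifiers, the one with the same GENCODE symbol was used. Alternatives were a pseudocount of 0.1, other filters and scalings, other folds, a fit without the second term, and leaving out libraries.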

Additional observations from a re-analysis of the deposited data

Results flagged for a closer look

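The suffix R difference had opposite directions in stem CT26_102 and in stem CT26_CTL for 6 members, higher in the first and lower in the second. The stem contrast, on log2(FPKM + 1), was 3.89 for Tyrobp, 3.15 for Lyz2, 2.55 for Lyz1, 1.99 for Ctss, 1.97 for Laptm5 and 1.87 for Fcer1g. Among genes of the fixed lists, Cd52 at 1.94 and Coro1a at 1.87 also went opposite ways, by at least 1.5-fold in each stem. Each stem and suffix holds 1 library, so the difference between the stems was not tested.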

How the results depend on the processing

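The direction of the suffix R difference in each stem was the same for all 10 members as deposited, with a pseudocount of 0.1, with upper-quartile scaling and with median-of-ratios scaling. With a pseudocount of 0.1 the stem contrast of Tyrobp was 7.12, and its size depends on that choice, since its value in CT26_CTL_R is 0. The median stem contrast of the members was 1.92, and 3.50 with a pseudocount of 0.1 or 1.195 over the members left with a mean FPKM of at least 5. Genes with opposite differences of at least 1.5-fold numbered 55, and 115 with a pseudocount of 0.1, 18 with a mean FPKM of at least 5, 23 at 2-fold and 325 at 1.2-fold. Genes with a stem contrast of at least 2-fold either way numbered 396, and 774 with a pseudocount of 0.1, 192 with a mean FPKM of at least 5 and 115 at 3-fold. In limma's fit of both terms 1541 genes passed by suffix and 2623 by stem, and 0 and 0 without the filter (4937 and 5802 at an unadjusted p under 0.05). Without the second term 1 and 34 passed. That fit, without each library in turn, gave 6, 2, 11 and 3 by suffix and 4, 0, 7 and 16 by stem, without CT26_102, CT26_CTL_R, CT26_CTL and CT26_102_R in that order, and the 0 came with 951 genes at an unadjusted p under 0.05. Where a library is left out, the lone library of a group is assumed to vary like the others. With both terms and 3 libraries no residual degrees of freedom are left, and the stem contrast of a member has no value without any 1 library. The causes of these shifts were not tested beyond the number of genes and libraries that each setting leaves. Depth limits the lowest values, of Fcer1g, Laptm5 and Tyrobp in CT26_CTL_R, to a few fragments or none.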

Other observations

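Around the mean of the 6 members with opposite differences, a set chosen after its values were seen, the nearest genes were Fxyd2 at a distance of 0.200, Akap2 at 0.241, Mycn at 0.348 and Zfx at 0.381, with Cd52 sixth at 0.551. Mycn, a MYC family gene, was at 3.68 FPKM in CT26_102_R against 2.26 in CT26_102, and at 0.174 in CT26_CTL_R against 2.24 in CT26_CTL. Ltb4r1, which encodes the leukotriene B4 receptor and did not pass the filter, was at 2.86 FPKM in CT26_102_R and listed at 0 in CT26_102, and at 0.249 in CT26_CTL_R and listed at 0 in CT26_CTL. Inpp5d, a lipid phosphatase gene of blood cells below the filter too, was at 1.44 FPKM in CT26_102_R against 0.156 in CT26_102, and at 0.329 in CT26_CTL_R against 0.284 in CT26_CTL.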
